A study of Mus musculus with 12 samples.

Results

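Transcripts of 68 genes of the Asb, Kelch and cullin families were examined, out of 18194 genes with a probe set of their own on the array. The members were chosen by symbol (Asb followed by a digit, Klhl, Kbtbd, or Cul followed by a digit), and each gene was read by its probe set of highest mean log2 intensity over the 12 arrays. They comprised 18 Asb, 33 Klhl, 9 Kbtbd and 8 Cul genes. Gene expression had been measured on Affymetrix arrays in gastrocnemius, the main calf muscle, of 12 male mice from lines bred for high voluntary wheel running, at generation 37 and a mean age of 84 days (79 to 86). 6 mice came from line 3 and had the mini-muscle phenotype, an inherited reduction in hindlimb muscle mass, and 6 came from line 8 and had muscle of regular size. All 12 mice therefore came from selected lines, and no unselected control mice were on these arrays. Left and right muscles were pooled within each mini-muscle mouse, while 1 limb was used from each regular-muscle mouse, so phenotype, line and pooling cannot be told apart. Each group rests on 1 line, and wheel access before sampling is not given in the sources used here. Differences below are mini-muscle minus regular-muscle in log2 MAS5 intensity, with the standard error (SE) of the fit and n = 6 arrays per group. A gene was called at an adjusted p under 0.05 from limma with Benjamini-Hochberg adjustment over the 9097 genes above a dim limit of log2 8.56.

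Cullin-RING ligases attach ubiquitin to proteins. A cullin forms the scaffold, a RING protein at one end of it brings the ubiquitin-conjugating enzyme, and an exchangeable adaptor at the other end chooses the substrate. Asb proteins carry ankyrin repeats and a SOCS box, which binds elongins B and C and through them Cul5. Most Klhl and Kbtbd proteins carry a BTB domain that binds Cul3 and Kelch repeats that bind the substrate, although some act by stabilising a partner. In skeletal muscle, variants in KLHL40, KLHL41 and KBTBD13 cause nemaline myopathy, a disorder of the thin filament, and Asb2 and Asb5 are ankyrin-repeat adaptors of striated muscle.

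The promoter windows below belong to Klhl40, which had the largest increase of the members above the dim limit, and to some other called members. Those others were chosen because their windows hold a MEF2 site or a CArG box, the binding motifs of the muscle regulators MEF2 and serum response factor. Each window runs from 250 bases before to 50 bases after a RefSeq transcription start (GRCm38.p6), 5′ to 3′ on the gene's strand, and capitals mark the CAGCTG E-box, the MEF2 site and the CArG box.
Klhl40, chr9:121777357-121777656, plus strand: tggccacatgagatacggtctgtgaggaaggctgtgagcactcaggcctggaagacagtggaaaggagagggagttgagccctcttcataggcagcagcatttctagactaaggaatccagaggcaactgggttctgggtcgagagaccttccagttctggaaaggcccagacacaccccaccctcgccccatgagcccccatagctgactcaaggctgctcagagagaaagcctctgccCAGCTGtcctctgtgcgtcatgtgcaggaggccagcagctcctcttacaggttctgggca
Asb5, first start, chr8:54550081-54550380, plus strand: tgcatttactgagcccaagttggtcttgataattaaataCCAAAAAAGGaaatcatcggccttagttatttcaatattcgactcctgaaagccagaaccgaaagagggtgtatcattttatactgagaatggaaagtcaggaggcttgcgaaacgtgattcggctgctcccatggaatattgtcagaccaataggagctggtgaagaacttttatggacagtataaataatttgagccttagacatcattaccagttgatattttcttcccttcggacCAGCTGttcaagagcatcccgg
Asb5, second start, chr8:54571189-54571488, plus strand: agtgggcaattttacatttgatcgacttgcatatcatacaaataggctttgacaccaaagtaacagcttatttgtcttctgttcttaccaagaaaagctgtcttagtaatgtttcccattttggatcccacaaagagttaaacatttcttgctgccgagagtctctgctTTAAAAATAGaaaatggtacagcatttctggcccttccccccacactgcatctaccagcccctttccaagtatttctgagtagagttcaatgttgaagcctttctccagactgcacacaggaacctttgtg
Asb12, chrX:95478080-95478379, minus strand: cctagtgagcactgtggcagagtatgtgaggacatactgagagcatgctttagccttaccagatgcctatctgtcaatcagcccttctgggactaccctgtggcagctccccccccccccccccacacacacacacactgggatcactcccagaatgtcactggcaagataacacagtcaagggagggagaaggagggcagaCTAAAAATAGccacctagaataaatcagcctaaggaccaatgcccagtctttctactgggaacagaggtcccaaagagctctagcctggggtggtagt
Asb2, chr12:103355952-103356251, minus strand: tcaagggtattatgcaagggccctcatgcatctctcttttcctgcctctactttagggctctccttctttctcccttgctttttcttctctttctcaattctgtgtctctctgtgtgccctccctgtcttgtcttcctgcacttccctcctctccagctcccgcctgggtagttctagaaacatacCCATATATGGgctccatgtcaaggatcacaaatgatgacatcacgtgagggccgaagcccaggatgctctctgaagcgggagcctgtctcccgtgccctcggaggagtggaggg
In the Klhl40 window the only marked motif is a CAGCTG E-box, which starts 10 bases before the transcription start. The first Asb5 window holds a CArG box (CCAAAAAAGG) and an E-box, and the second Asb5 window a MEF2 site (TTAAAAATAG). Asb12 holds a MEF2 site (CTAAAAATAG) and Asb2 a CArG box (CCATATATGG).

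Windows were found for 59 of the 68 members (79 windows, since some genes have several starts). The called genes Klhl30 and Klhl8 were among those without a window, so no motif could be searched for in them. The MEF2 site was in 8 of the 79 member windows and in 3.19% of all 32851 windows. The 8 members holding it were Asb5, Asb12, Asb14, Asb16, Asb18, Kbtbd12, Klhl33 and Klhl41. Of these only Asb5 and Asb12 were called, since Asb14, Asb18 and Klhl41 did not pass and Asb16, Kbtbd12 and Klhl33 were too dim to be tested. The CArG box was in 2 of the 79 member windows, those of Asb2 and Asb5, and in 1.63% of all windows. The CAGCTG E-box was in 16 of the 79 member windows, belonging to 15 members, and in 16.3% of all windows. All 3 motifs were searched on both strands and were chosen with the expression results known. The called Asb genes whose windows hold a MEF2 site or CArG box went in both directions, as Asb5 was lower and Asb2 and Asb12 were higher in mini-muscle.

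Of the 68 members, 48 lay above the dim limit and were tested. Among them 7 were higher in mini-muscle (Klhl40, Klhl30, Cul7, Klhl23, Kbtbd7, Asb12 and Asb2) and 4 were lower (Asb5, Klhl8, Cul3 and Asb11). These 11 are 22.9% of the tested members, close to the 26.7% of all 9097 genes that were called (14.9% higher and 11.8% lower). Called at least 2-fold were 3 members (Klhl40, Klhl30 and Cul7), against 3.01% of all genes. No array of one group lay within the range of the other for 6 members, 3 higher and 3 lower, against 13.0% of all genes. The median difference was 0.00 over the tested members and 0.03 over all genes. With array weights 17 of the 48 members were called, 8 higher and 9 lower, and 2522 of all 9097 genes, in place of 2426. In the fit without weights the share called was thus near the background, and the differences above 2-fold sat in 3 genes.

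**Figure D1:**
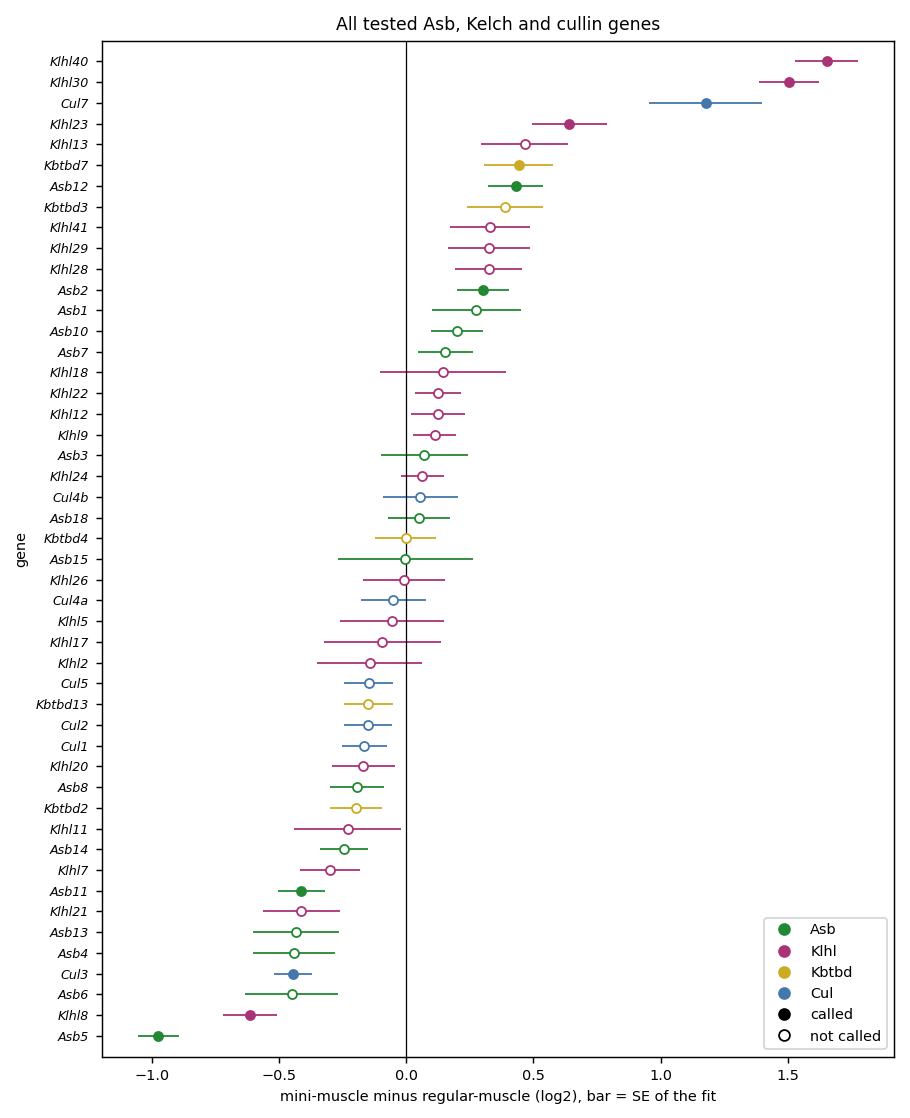
Difference between mini-muscle and regular-muscle (log2, x axis) for each of the 48 tested members (y axis), with the SE of the fit as bars, colours for the families and filled points for called genes. Klhl40, Klhl30 and Cul7 lie above 1 at the top, Asb5 lies near -1 at the bottom, and the open points lie between -0.45 and 0.46.

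The Kelch genes held the largest changes of the set. Of 21 tested Klhl genes 3 rose and 1 fell, and their median difference was 0.11. Klhl40 encodes a BTB-Kelch protein of the sarcomere that binds and stabilises nebulin and leiomodin 3. It ranged from 13.15 to 13.60 (median 13.26) on the mini-muscle arrays and from 11.20 to 12.13 (median 11.61) on the regular-muscle arrays. Every mini-muscle array lay above every regular-muscle array, and the highest regular-muscle value was that of replicate 4. Klhl40 was 3.14-fold higher in mini-muscle (log2 1.65, SE 0.12, limma adjusted p = 4.4e-08).

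Klhl30, a less studied Kelch gene, ranged from 12.99 to 13.42 (median 13.26) in mini-muscle and from 11.41 to 12.26 (median 11.65) in regular muscle. Again the groups did not overlap, and regular-muscle replicate 4 was again the highest of its group. The gene was 2.83-fold higher (log2 1.5, SE 0.12, limma adjusted p = 7.3e-08). Klhl40 and Klhl30 are each read by 1 probe set, so neither has a second measurement on the array. Without regular-muscle replicate 4 both were called, as they were when each other array was left out.

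Klhl23 was 1.56-fold higher (log2 0.64, SE 0.15, limma adjusted p = 0.0030), at 10.19 to 10.94 (median 10.64) in mini-muscle and 9.72 to 10.50 (median 9.88) in regular muscle. The groups overlapped through regular-muscle replicate 5, which stood at the top of its group. Klhl8 was 1.53-fold lower (log2 -0.61, SE 0.11, limma adjusted p = 2.9e-04), at 10.73 ± 0.19 (SD, n = 6; lowest 10.49, median 10.74) against 11.34 ± 0.13 (SD, n = 6; lowest 11.21, highest 11.47). All mini-muscle arrays lay below all regular-muscle arrays. A second, dimmer Klhl8 probe set gave -0.08 (SE 0.21), and with the mean of both probe sets the call was lost (log2 -0.35, adjusted p = 0.11).

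Klhl41, the close relative of Klhl40 that also binds nebulin and interacts with Nrap, did not pass. It ranged from 13.09 to 13.80 (median 13.40) in mini-muscle and from 12.38 to 13.56 (median 13.15) in regular muscle. These groups overlapped, and the regular-muscle arrays were widely spread (SD 0.42). The difference was 0.33 (95% interval -0.00 to 0.66, limma adjusted p = 0.14), and it passed only without regular-muscle replicate 4 (adjusted p = 0.042). Whether Klhl40 and Klhl41 changed by different amounts was not tested.

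Of 5 tested Kbtbd genes Kbtbd7 alone rose, and none fell (median difference 0.00). Kbtbd7, whose protein pairs with Kbtbd6 as a Cul3 adaptor, ranged from 10.38 to 10.69 (median 10.55) in mini-muscle and from 9.60 to 10.59 (median 10.12) in regular muscle (log2 0.44, SE 0.14, limma adjusted p = 0.021). All but 1 of the regular-muscle arrays lay below the mini-muscle range, the exception being replicate 2. The probe set used is of the _s class, which can match several transcripts, and the other probe sets of Kbtbd7, both below the dim limit, gave -0.32 (SE 0.33) and -1.04 (SE 0.78). With the mean of all its probe sets the sign turned (log2 -0.31, adjusted p = 0.56), and with arrays centred on their medians the call was lost (adjusted p = 0.075). The nemaline myopathy gene Kbtbd13 differed by -0.15 (95% interval -0.35 to 0.06, limma adjusted p = 0.29).

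**Figure D2:**
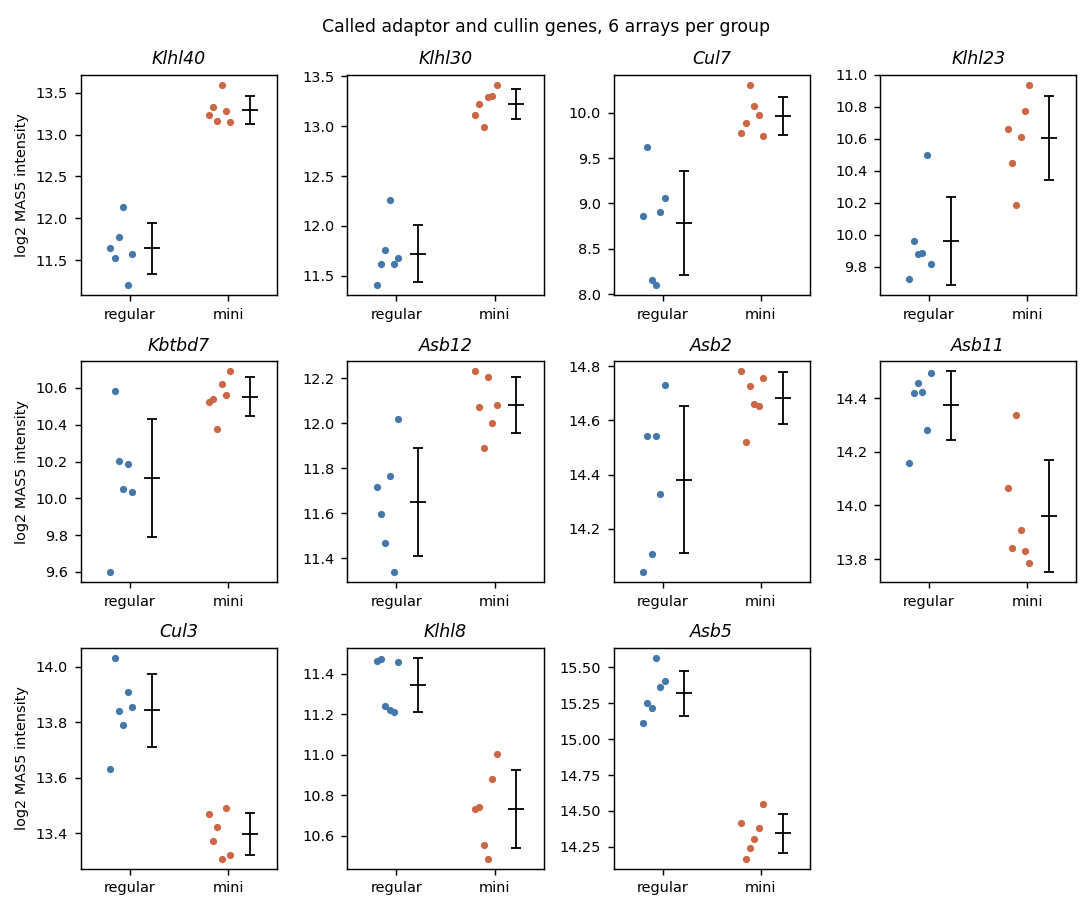
Log2 MAS5 intensity (y axes, each with its own range) of the 11 called members on the 6 regular-muscle and 6 mini-muscle arrays, 1 point per array, with the group mean and SD as a bar at the right of each group. The groups stand apart for Klhl40, Klhl30, Cul7, Cul3, Klhl8 and Asb5 and overlap for the other 5 genes.

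The Asb genes moved in both directions. Of 15 tested Asb genes 2 rose and 2 fell, and the median difference was 0.00. Asb5 showed the largest decrease of the tested members. It ranged from 14.17 to 14.55 (median 14.34) in mini-muscle and from 15.11 to 15.56 (median 15.31) in regular muscle. The gap between the groups was wider than the range within either, and the gene was 1.96-fold lower in mini-muscle (log2 -0.97, SE 0.08, limma adjusted p = 1.3e-07). Asb5 is read by 1 probe set.

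Asb11, an adaptor linked to Notch ligand turnover and muscle progenitors in fish, was 1.33-fold lower (log2 -0.41, SE 0.09, limma adjusted p = 0.0025). It ranged from 13.79 to 14.34 (median 13.87) against 14.16 to 14.49 (median 14.42), and mini-muscle replicate 3 reached into the regular-muscle range. Asb12 was 1.35-fold higher (log2 0.43, SE 0.11, limma adjusted p = 0.0057), at 11.89 to 12.23 (median 12.08) against 11.34 to 12.02 (median 11.66). The overlap came from regular-muscle replicate 6.

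Asb2, an adaptor that directs filamins to degradation and whose excess reduces muscle mass in mice, was 1.23-fold higher (log2 0.30, SE 0.10, limma adjusted p = 0.035). It ranged from 14.52 to 14.78 (median 14.69) in mini-muscle and from 14.04 to 14.73 (median 14.43) in regular muscle. The regular-muscle arrays had the wider spread (SD 0.27 against 0.10), and 3 of them lay within the mini-muscle range. Among the called members this call was lost most often, namely in 4 of 8 other settings (adjusted p = 0.12 with arrays centred on their medians) and in 8 of 12 cases with 1 array left out (mini-muscle replicates 1, 3, 4, 5 and 6 and regular-muscle replicates 1, 3 and 5).

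Among other Asb genes looked at by name, Asb14 differed by -0.24 (95% interval -0.44 to -0.05, limma adjusted p = 0.060). It passed with a higher dim limit (adjusted p = 0.048) and without mini-muscle replicate 1 or regular-muscle replicate 3 or 5. Asb4 differed by -0.44 (95% interval -0.78 to -0.10, limma adjusted p = 0.052), with -0.44 at its second probe set. Quantile normalization (adjusted p = 0.042), array weights (0.043) and leaving out the intensity trend (0.048) each brought it past the threshold, and it also passed without mini-muscle replicate 1 or regular-muscle replicate 1 or 5. Asb8 (-0.19, 95% interval -0.42 to 0.03), Asb10 (0.20, -0.02 to 0.42) and Asb18 (0.05, -0.20 to 0.30) did not pass. Asb15 differed by 0.00 (95% interval -0.56 to 0.56). Its arrays ranged from 12.10 to 13.83 in mini-muscle and from 12.42 to 13.79 in regular muscle, the widest spread within groups of the tested members (pooled SD 0.61, against a median of 0.23).

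Among the scaffolds 1 of 7 tested cullins rose and 1 fell. Cul3, the scaffold of the BTB-Kelch ligases, ranged from 13.31 to 13.49 (median 13.40) in mini-muscle and from 13.63 to 14.03 (median 13.85) in regular muscle. The groups did not overlap, and the gene was 1.36-fold lower in mini-muscle (log2 -0.45, SE 0.07, limma adjusted p = 1.8e-04). Cul3 has 5 probe sets, all above the dim limit. The other 4 gave differences of -0.67 to -0.49, and all 5 passed when adjusted over all 34958 single-gene probe sets (limma adjusted p of 4.5e-04 to 0.049), of which 8.92% passed.

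Cul7, a cullin that works with Fbxw8 and has Irs1 of the insulin pathway among its targets, was 2.26-fold higher (log2 1.18, SE 0.22, limma adjusted p = 6.5e-04). It ranged from 9.74 to 10.31 (median 9.93) in mini-muscle and from 8.10 to 9.63 (median 8.88) in regular muscle. The groups stood apart by a narrow gap, since regular-muscle replicate 2 lay close to the lowest mini-muscle array, and the regular-muscle SD of 0.58 was the wider. Cul7 is read by 1 probe set, of the _a class.

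The other cullins did not pass. Cul5, the scaffold of the Asb ligases, differed by -0.15 (95% interval -0.35 to 0.06, limma adjusted p = 0.29), Cul1, the scaffold of the F-box ligases, by -0.16 (-0.35 to 0.02) and Cul2 by -0.15 (-0.35 to 0.05). Cul4a differed by -0.05 (-0.32 to 0.22). Cul4b differed by 0.06 (-0.25 to 0.36), but its second probe set gave 0.83 (SE 0.19), and with the mean of both it passed (log2 0.45, adjusted p = 0.036).

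The 37 tested members that were not called differed by -0.45 (Asb6) to 0.46 (Klhl13), and 24 of them by less than 0.2 in size. Klhl13 had the smallest adjusted p of them (0.051) and passed without regular-muscle replicate 5, with probe sets averaged, without the intensity trend and with array weights. Asb6 (adjusted p = 0.079) passed without regular-muscle replicate 4 and with array weights. Several probe sets above the dim limit were present for 19 of the tested members, and in 15 of these all other probe sets had the sign of the one used. The exceptions were Asb6, Asb13, Asb15 and Kbtbd13. Klhl24, not called, differed by 0.06 at the probe set used but by 0.23 to 0.53 at its 3 others above the limit. Differences of 0.35 and 0.53 among these passed when adjusted over all single-gene probe sets (limma adjusted p = 0.022 and 0.0060).

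**Figure D3:**
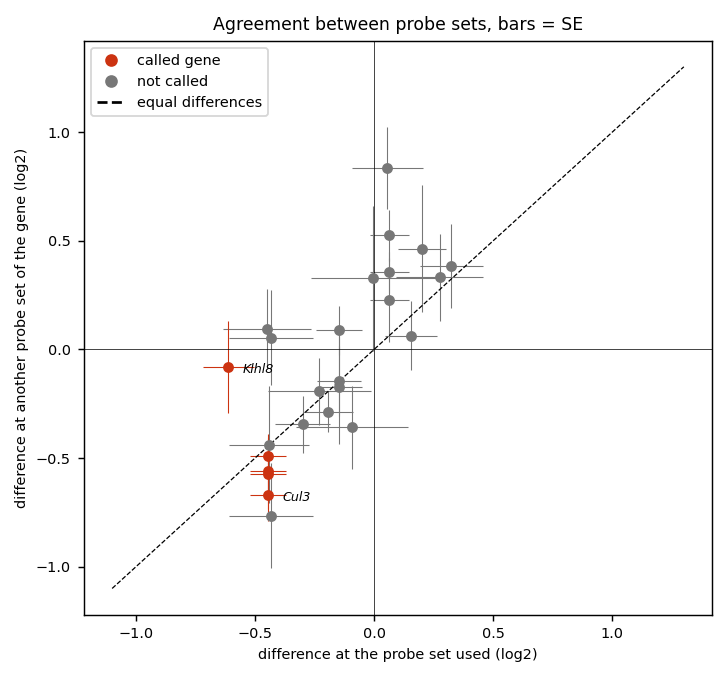
Difference (log2) at the probe set used (x axis) against that at each other probe set above the dim limit of the same gene (y axis), with SE bars, for the 19 members with several such probe sets. The 4 other Cul3 probe sets lie at -0.67 to -0.49, whereas the other Klhl8 probe set lies near 0.

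The remaining 20 members had mean log2 intensities of 4.46 to 8.47, below the dim limit, and were not tested in the main comparison. They were 12 Klhl, 4 Kbtbd, 3 Asb and 1 Cul gene, and in all 20 the groups of arrays overlapped. When all 18194 genes were tested without a dim limit, 1 of the 20 passed, against 1.87% of all genes below the limit. That gene, Klhl42, singled out after its values were seen, ranged from 5.82 to 8.29 in mini-muscle and from 2.69 to 8.00 in regular muscle (log2 2.84, limma adjusted p = 0.020). Its regular-muscle replicate 6 stood within the mini-muscle range, and the other regular-muscle arrays stood below all mini-muscle arrays. The muscle-linked genes Asb16, Klhl33 and Kbtbd12 were among the dim members.

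The rest of the ligase machinery was read from lists of the same system, written with earlier results of these data known. Of 21 tested genes of the cullin-RING core and of neddylation, the modification that activates cullins, 8 fell and 1 rose, where 11.8% of all genes tested were lower and 14.9% higher. Their median difference was -0.16, against 0.03 over all genes. The RING protein Rbx1 lay below the dim limit at its only probe set (mean log2 5.10), and Ube2m had no probe set of its own, so neither was tested. Ube2d1, a ubiquitin-conjugating enzyme, fell by 0.67 (SE 0.10, limma adjusted p = 5.6e-05) and Ube2r2, another, by 0.54 (adjusted p = 1.8e-04), or by 0.33 with its probe sets averaged (adjusted p = 0.024). Skp1, which links F-box proteins to Cul1, fell by 0.55 (SE 0.10, limma adjusted p = 3.0e-04). Elongin B, Elob, which joins SOCS-box proteins to Cul5, fell by 0.38 (SE 0.07, limma adjusted p = 2.8e-04), with -0.51 at its second probe set. Its partner Eloc differed by -0.11 at the probe set used (adjusted p = 0.25). At 2 other Eloc probe sets above the limit the differences were -0.59 and -0.71 (limma adjusted p = 0.0037 and 5.9e-04 over all single-gene probe sets), and with its probe sets averaged Eloc passed (log2 -0.47, adjusted p = 0.0026). Against this direction Ddb1, the adaptor of Cul4 ligases, rose by 0.70 (SE 0.11, limma adjusted p = 1.2e-04).

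Of 15 genes of the COP9 signalosome, which removes NEDD8 from cullins, and of factors that exchange adaptors, 4 fell and 1 rose (median -0.10), against the same shares of all genes. Cops5, the catalytic subunit, fell by 0.38 (SE 0.08, limma adjusted p = 0.0013) and Cops7a by 0.33 (adjusted p = 0.0081). Cand2, a muscle-enriched cullin exchange factor, rose by 0.59 (SE 0.10, limma adjusted p = 1.5e-04), with 0.47 at its second probe set. With arrays centred on their medians 1 gene of this list passed in place of 5, and Cops5 (adjusted p = 0.0502) and Cops7a (0.095) were lost. That setting called 1641 of all 9097 genes, in place of 2426. With probe sets averaged by gene 3 of 13 passed, against 1543 of all 9097 genes, and Cops7a did not (adjusted p = 0.093).

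**Figure D4:**
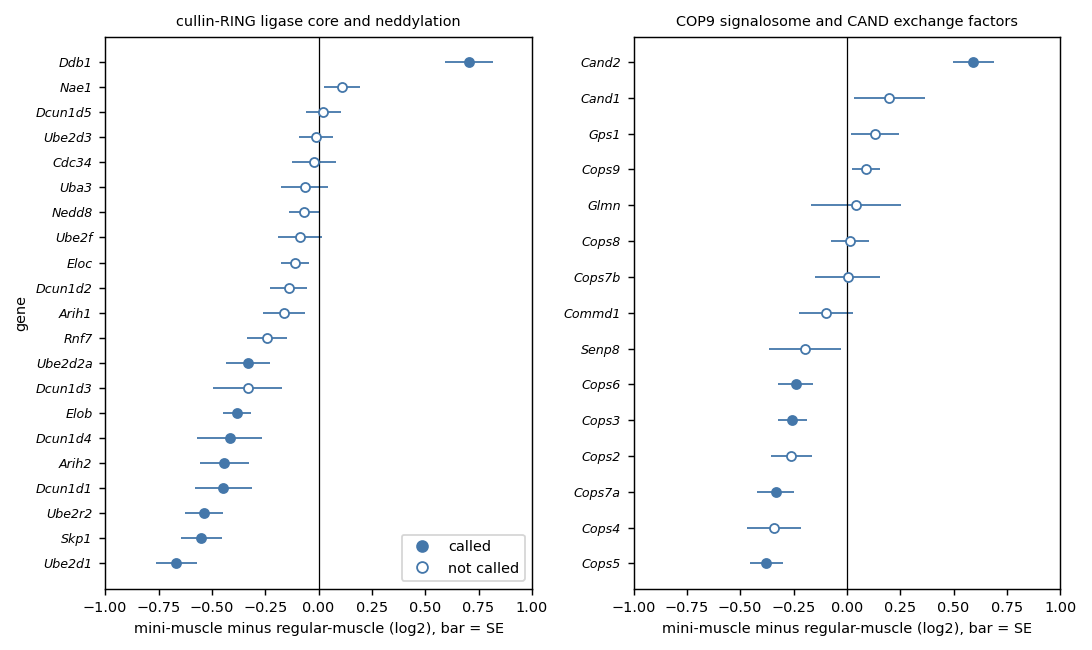
Difference (log2, x axes) with SE bars for the tested genes (y axes) of the cullin-RING core and neddylation list, left, and of the COP9 signalosome and exchange factor list, right, with filled points for called genes. Ddb1 and Cand2 are the only filled points above 0, and the other filled points, from -0.24 down to -0.67, lie below it.

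Adaptors of related kinds outside the symbol rule also changed both ways. Of 22 tested BTB-domain adaptors 2 rose and 6 fell (median 0.01), again to be read against 14.9% higher and 11.8% lower over all genes. Ivns1abp, a BTB-Kelch protein, fell by 0.56 (SE 0.10, limma adjusted p = 5.4e-04), Btbd6 rose by 0.63 (adjusted p = 0.0035) and Btbd1 by 0.28 (adjusted p = 0.0067). With probe sets averaged the calls of Ivns1abp (log2 -0.60, adjusted p = 0.11) and Btbd1 (0.22, adjusted p = 0.53) were lost, the second also with arrays centred on their medians (adjusted p = 0.11). Each average took in a probe set below the dim limit, with an SE of 0.81 for Ivns1abp and 0.46 for Btbd1. A second bright Ivns1abp probe set gave -0.71 (limma adjusted p = 3.7e-05 over all single-gene probe sets). This list's count was 5 in all without regular-muscle replicate 2, 3 with arrays centred on their medians and 2 with probe sets averaged by gene. Of all 9097 genes, 1641 were called with that centring and 1543 with that averaging, in place of 2426. Of 23 SOCS-box and BC-box adaptors 4 rose and 5 fell (median 0.09), against those same background shares. Socs2, which restrains growth hormone signalling, ranged from 9.17 to 10.06 in mini-muscle and from 10.94 to 11.83 in regular muscle, and was 3.07-fold lower (log2 -1.62, SE 0.18, limma adjusted p = 2.5e-06). At 2 further probe sets above the dim limit the difference was -0.96 (limma adjusted p = 4.8e-04 over all single-gene probe sets) and 0.15. Averaging all 6 of its probe sets ended the call (log2 -0.48, adjusted p = 0.20). Those below the dim limit differed by -1.34 to 1.45. Rab40b rose by 0.91 (adjusted p = 1.4e-04), or by 1.85 with a dim probe set averaged in. Fem1b fell by 0.77 (adjusted p = 2.9e-04), but its second probe set gave 0.46, and averaging both ended the call (log2 -0.15, adjusted p = 0.41). Of this list 4 genes passed with arrays centred on their medians and 4 with probe sets averaged by gene, in place of 9. The whole array gave 1641 and 1543 calls in those settings, in place of 2426.

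A list of reported partners and substrates of the members, with sarcomere proteins near them, held 28 tested genes, of which 12 rose and 2 fell (median 0.16), where 14.9% of all genes tested were higher and 11.8% lower. This list was written from background knowledge, but with earlier results of these data known, so its count is a description and not a test. A place on it does not mean that every pair is an established ligase and substrate in muscle. Nrap, an actin-binding protein of myofibril assembly that interacts with Klhl41, ranged from 15.13 to 15.45 in mini-muscle and from 14.13 to 14.36 in regular muscle (log2 1.03, SE 0.07, limma adjusted p = 1.1e-08). Lmod3, the leiomodin that Klhl40 stabilises, rose by 0.46 (SE 0.10, limma adjusted p = 0.0027), with overlap at 13.27 to 13.72 against 12.76 to 13.37. Its relative Lmod2 rose by 1.28 (SE 0.12, adjusted p = 5.6e-07) without overlap.

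Neb, the giant thin-filament protein nebulin, ran the other way from Klhl40. It ranged from 15.82 to 16.14 in mini-muscle and from 16.10 to 16.30 in regular muscle (log2 -0.21, SE 0.06, limma adjusted p = 0.016). That call was lost with quantile normalization (adjusted p = 0.067), with arrays centred on their medians (0.23), without the dim limit (0.082) and without the intensity trend (0.069). The filamin Flnc was 3.20-fold higher, at 13.71 to 14.17 against 11.61 to 13.02 (log2 1.68, SE 0.17, limma adjusted p = 1.1e-06), with 1.59 at its second probe set. The intermediate filament desmin, Des, reported as an Asb2 substrate in heart, rose by 0.85 (SE 0.09, limma adjusted p = 2.5e-06). Its dimmer second probe set gave 0.27 (adjusted p = 0.44 over all single-gene probe sets), and the average of both 0.56. Actn2, the alpha-actinin of the Z-disc, rose by 1.11 (adjusted p = 8.0e-07).

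**Figure D5:**
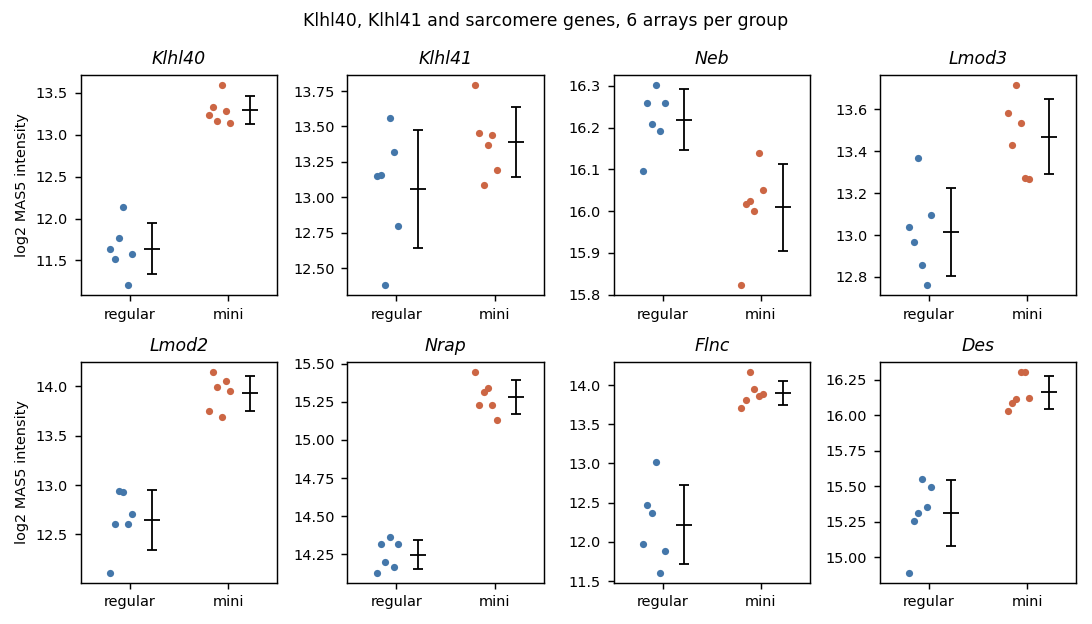
Log2 MAS5 intensity (y axes, each with its own range) of Klhl40, Klhl41 and 6 sarcomere genes on the 6 arrays of each group, 1 point per array, with the group mean and SD as a bar. Klhl40, Lmod2, Nrap, Flnc and Des stand higher in mini-muscle without overlap, Klhl41, Lmod3 and Neb overlap, and Neb has the lower mean in mini-muscle.

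Among the signalling partners, Jak2, a kinase reported as a target of an Asb2 complex, was 1.96-fold lower in mini-muscle (log2 -0.97, SE 0.11, limma adjusted p = 4.5e-06), with -1.02 at its second probe set. Pik3r1, the phosphoinositide 3-kinase subunit that Kbtbd2 turns over, rose by 0.65 (SE 0.14, limma adjusted p = 0.0020), with 0.44 and 0.07 at 2 other probe sets above the limit. Kbtbd2 itself differed by -0.20 (adjusted p = 0.17). Dll1, a Notch ligand of the kind that Asb11 acts on in fish, rose by 0.75 (SE 0.23, limma adjusted p = 0.019). Ckb, brain-type creatine kinase and the substrate of Asb9, differed by 0.35 (adjusted p = 0.11), and Asb9 lay below the dim limit. Tnfrsf1b, reported as a target of Asb3, differed by -0.56 (limma adjusted p = 0.083). It passed without the intensity trend (adjusted p = 0.042).

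All 8 skeletal muscle markers of the labelled tissue lay above the dim limit, 2 of them higher in mini-muscle (Myh1 by 0.29, Ryr1 by 0.25) and 2 lower (Myh4 and Tnnt3), with a summed intensity of 889530 to 1026940 against 993755 to 1237700. Neither rise was seen at the gene's second probe set above the limit, which gave 0.00 for Myh1 and -0.27 (SE 0.12) for Ryr1. Markers of other cells in the muscle also differed, their counts to be read against 11.8% lower and 14.9% higher of all genes tested. Of 5 fibroblast markers 4 were lower in mini-muscle, and their summed intensity was 23897 to 41253 on mini-muscle arrays and 43195 to 67567 on regular-muscle arrays. Both tested tendon markers were lower (sum over 4 genes 1952 to 5257 against 6679 to 9857), as were 3 of 4 macrophage markers (sum over 5 genes 3707 to 5117 against 4427 to 7592) and 1 of 2 adipocyte markers (sum over 4 genes 2057 to 4480 against 3464 to 6292). Of 4 endothelial markers 1 was higher (sum over 5 genes 4637 to 5956 against 3312 to 5717), and neither the nerve nor the satellite cell marker tested was called, with 0 blood markers above the dim limit. No marker was at 0 on any array. The part of these differences in the members' results was not tested, and in whole muscle fewer cells of a type and less RNA per cell cannot be told apart. Among the muscle markers, the type IIb myosin gene Myh4 was lower in mini-muscle (log2 -1.33, limma adjusted p = 8.3e-07). The type IIx myosin gene Myh1 was higher at the probe set used (log2 0.29, limma adjusted p = 0.0036). Its other probe sets gave 0.00 (SE 0.09) above the dim limit and 2.90 (SE 0.57) below it, so a rise of Myh1 is not settled. The part of Myh4 and Myh1 in the members' results was likewise not tested. Of the 4 members on chromosome 11, which carries Myh4, 2 were tested and 0 were called. Pearson correlations of log2 values over all genes were 0.89 to 0.91 between arrays of a group and 0.88 to 0.90 between groups.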

How the data were processed

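The authors deposited 1 linear intensity per probe set and array, which the submitters' processing notes ascribe to MAS5. Neither its version nor its settings are given in the sources used here. The mean of each array without its lowest and highest 2% was 800.0, so the arrays had been scaled to 1 target, which leaves the shape of each distribution free. Of 45101 probe sets, the platform annotation named 1 gene for 34958, several for 932 and none for 9211, and 34754 were found in RefSeq (GRCm38.p6), and 0 symbols changed. Intensities were taken to log2 with no offset. The brightest probe set of each gene was kept, genes below the median of gene means were left out as dim, and limma 3.58.1 (R 4.3.3; lmFit, eBayes with trend, two-sided, Benjamini-Hochberg) compared 6 with 6 arrays over 9097 genes. Simulated data were used to test the fit. Levels of different probe sets were not compared. Arrays have no read depth, and their number limits the precision. Replicate numbers only name arrays, each from a different mouse. Members, gene lists and motifs were chosen with earlier results of these data known. Text names every called member, muscle-linked members and cullins above the dim limit, the 3 genes with the smallest adjusted p in each list, and partners of members. Some other members, such as Asb4 and Klhl24, are also named. Promoter windows came from RefSeq.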

Additional observations from a re-analysis of the deposited data

Results flagged for a closer look

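Both groups of 53 named genes were searched for an array standing apart from the other 5 by Dixon's 95% rule. This found 6 of 106 groups, and chance gives about 1 in 20. Among the members, mini-muscle replicate 5 was high for Cul2 (log2 12.42, nearest array 12.08), mini-muscle replicate 1 low for Cul4a (10.59, nearest 11.13) and regular-muscle replicate 5 high for Klhl23 (10.50, nearest 9.96). Without the array in question Klhl23 was still called, and Cul2 and Cul4a were still not called. Among the other genes, regular-muscle replicate 5 was high for Btbd1 (14.66, nearest 14.40), mini-muscle replicate 3 low for Cops5 (13.44, nearest 13.59) and mini-muscle replicate 1 low for Ube2r2 (11.80, nearest 12.06). Those 3 calls also held without the array in question.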

How the results depend on the processing

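Of 35 called named genes, 25 kept their direction and call in all 20 other settings run for them, Klhl40, Klhl30, Cul7, Klhl23, Asb12, Asb5, Cul3 and Asb11 among them. Cul7 and Dll1, both kept, were not bright enough for the setting with the highest dim limit and have no value there. When each gene was read as the average of its probe sets, 1543 genes of the whole array were called, 3 of the COP9 list, 2 of the BTB-domain list and 4 of the SOCS-box list, and Kbtbd7 turned to -0.31. With arrays centred on their medians, 1641 genes of the whole array were called, against 2426 in the main fit. Among them were 1 gene of the COP9 list, 3 of the BTB-domain list and 4 of the SOCS-box list. With array weights, 17 of the 48 tested members were called in place of 11, and 9 of them were lower in mini-muscle. Of all 9097 genes, 2522 were called with weights, in place of 2426. When each array was left out in turn, 2145 to 2396 genes of the whole array were called, with 6 to 8 members higher and 4 to 7 members lower (7 without regular-muscle replicate 4). The lists then gave 7 to 10 genes for the cullin-RING core, 4 to 6 for COP9, 5 to 9 for the BTB-domain list, 6 to 11 for the SOCS-box list (6 without mini-muscle replicate 4) and 13 to 15 for the partners. The median difference of all genes was 0.01 with quantile normalization and 0.04 with arrays centred on their medians, against 0.03. No paired analysis was possible because the replicate numbers only name the arrays of each group. The deposited values carry no detection calls, so dim genes were set by level alone.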
